A study of Homo sapiens and Mus musculus with 36 samples.

Results

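Lewis lung carcinoma (LLC) is a transplantable mouse lung tumour line, and 6 of the 36 libraries of the series came from it. They were chosen as all libraries of the LLC line by their labels: 4 from Dot1l-edited cells, 2 with the guide sg1 and 2 with the guide sg2, and 2 from cells with the control guide sgNeg2. The labels give the edited cells as Dot1l_KO and the sgNeg2 cells as WT, with no treatment of either, and all were grown in DMEM with serum. They do not say whether an edited line was 1 clone or a pool, or whether libraries of a guide came from separate cultures, so every p-value measures the spread between these libraries only, which may be technical. The labels name total RNA and a universal library kit, and no selection step. The other libraries came from the mouse liver tumour lines Hepa1-6 and Hep53.4, edited in the same way, and from a human liver tumour line. The comparison of edited with sgNeg2 cells asks which transcripts change when Dot1l is edited in a tumour line that is not from liver.

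DOT1L is the histone methyltransferase that modifies a lysine in the globular core of histone H3, a mark found over the bodies of transcribed genes. It acts in complexes with proteins of the AF9 and AF10 families (the products of Mllt3 and Mllt10) that link it to the elongation machinery. In leukaemias with rearranged KMT2A it is known for keeping HOXA genes and MEIS1 active. The mark is lost mainly by dilution as cells divide.

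The libraries held 53079993 and 56866348 counts with sg1, 49397883 and 59686358 with sg2, and 52314390 and 58040722 with sgNeg2. After a filter on low counts 12225 genes were tested. Levels are given in CPM, the usual scaling of a gene's count to the library total, here taken over the tested genes and adjusted by TMM, with no correction for gene length. On the first principal component of log2 CPM (70.3% of the variance) the knockout libraries lay at 4.14 to 8.89 and the sgNeg2 libraries at -13.9 and -12.7. The second component (10.6%) separated the guides, with sg1 at -3.38 and -3.57 and sg2 at 5.81 and 3.12.

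Dot1l itself had 32.0 and 30.1 CPM with sg1 and 32.9 and 33.7 CPM with sg2, against 62.0 and 68.8 CPM in sgNeg2 cells. All 4 knockout libraries lay below both sgNeg2 libraries, and the guides did not overlap with the control. The means were 32.2 ± 1.56 CPM (SD, n = 4) and 65.4 ± 4.81 CPM (SD, n = 2), so the transcript remained at 0.492 of its sgNeg2 level (log2 change -1.02 ± 0.06, adjusted p = 1.38e-10 by edgeR's quasi-likelihood test, Benjamini-Hochberg adjusted over all genes tested). Log2 changes carry their standard error from here on. Transcript counts do not show how much DOT1L protein or histone mark was left.

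Editing of Dot1l in LLC cells went with changes in many transcripts, most of them small. At an adjusted p below 0.05, 4097 of the 12225 genes were called (33.5%), of which 1957 rose (16%) and 2140 fell (17.5%). Of these calls 3542 were smaller than 1.5-fold, 1473 of them rises and 2069 falls. Changes of 2-fold or more were mostly rises: 303 genes rose (2.48%) and 11 fell (0.09%) by that much. Over all genes tested the median log2 change was 0.01. Without sgNeg2 replicate 1 the calls numbered 2519, with 1114 rises, 1405 falls and 187 rises of at least 2-fold, and without sgNeg2 replicate 2 the rises numbered 1267.

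**Figure D1:**
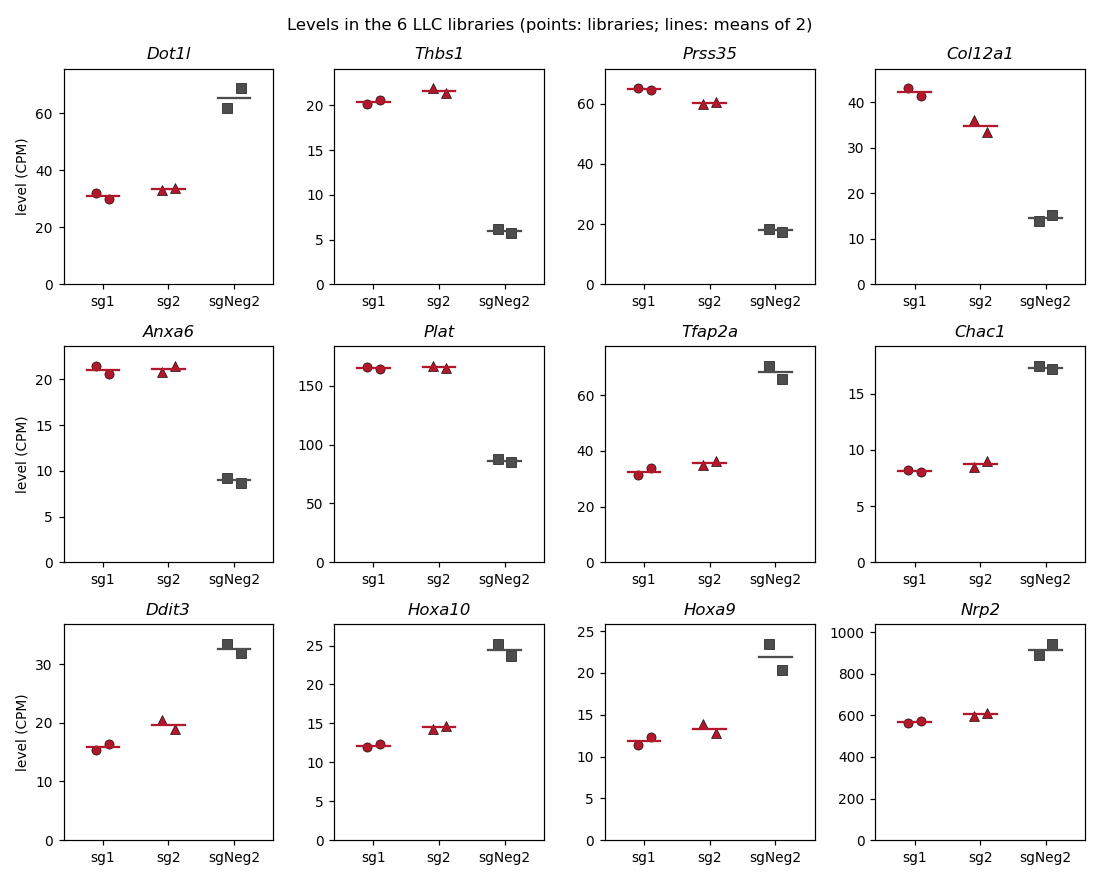
Level (CPM, from 0) of 12 genes in each LLC library, with sg1 and sg2 left of sgNeg2; points are libraries and lines are means of 2. Most of these genes were named by a rule that asked for groups that do not overlap, so their separation is part of the choice; Dot1l, the edited gene, had 30.1 to 33.7 CPM in knockout against 62.0 and 68.8 CPM in sgNeg2 cells.

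Thbs1 and Prss35 rose most among the genes averaging 5 CPM or more in which the groups did not overlap. The largest rises and falls and the genes of highest CPM were all chosen for such groups, also where they are given with their lists. Their separation is thus part of the choice. All knockout libraries lay above both controls in 24.8% of all genes tested and below both in 25.3%. Thbs1, which encodes the matricellular glycoprotein thrombospondin-1, had 20.2 and 20.6 CPM with sg1 and 21.9 and 21.3 CPM with sg2, against 6.14 and 5.71 CPM in sgNeg2 cells (log2 change 1.83 ± 0.09, adjusted p = 1.27e-11). Prss35, a member of the serine protease family, had 65.2 and 64.8 CPM with sg1 and 60.1 and 60.7 CPM with sg2, against 18.3 and 17.5 CPM in sgNeg2 cells (log2 change 1.81 ± 0.06, adjusted p = 3.91e-14). In both genes the 4 knockout libraries were tightly grouped and far above the controls. Col12a1, a collagen that associates with fibrils, had 43.1 and 41.3 CPM with sg1 and 36.1 and 33.6 CPM with sg2, against 13.9 and 15.3 CPM in sgNeg2 cells (log2 change 1.40 ± 0.09, adjusted p = 8.75e-10). Its knockout libraries all lay above the controls, and those with sg1 above those with sg2 (sg2 minus sg1 -0.28 ± 0.06, adjusted p = 0.00248). Igfbp5, a secreted binder of insulin-like growth factors, had 9.52 and 9.75 CPM with sg1 and 7.66 and 8.04 CPM with sg2, against 2.81 and 2.42 CPM in sgNeg2 cells (log2 change 1.75 ± 0.14, adjusted p = 1.98e-08). Tgm2, the cross-linking enzyme transglutaminase, had 8.59 and 6.41 CPM with sg1 and 6.96 and 6.87 CPM with sg2, against 2.63 and 2.2 CPM in sgNeg2 cells (log2 change 1.58 ± 0.15, adjusted p = 1.67e-07). Neither gene had a knockout library within the range of the controls.

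The other large rises were in genes of varied function. Aqp1, a water channel, had 9.10 and 7.43 CPM with sg1 and 8.82 and 7.13 CPM with sg2, against 2.67 and 2.18 CPM in sgNeg2 cells (log2 change 1.75 ± 0.15, adjusted p = 3.42e-08). Prph, the intermediate filament protein peripherin of peripheral neurons, had 8.34 and 8.98 CPM with sg1 and 9.76 and 9.28 CPM with sg2, against 3.37 and 2.77 CPM in sgNeg2 cells (log2 change 1.57 ± 0.13, adjusted p = 1.96e-08). Both were higher in every knockout library than in either control. Nt5e, the ecto-enzyme that makes extracellular adenosine, had 6.50 and 5.80 CPM with sg1 and 7.28 and 7.69 CPM with sg2, against 2.41 and 3.08 CPM in sgNeg2 cells (log2 change 1.31 ± 0.15, adjusted p = 1.90e-06). Anxa6, a calcium-dependent membrane-binding annexin, had 21.5 and 20.6 CPM with sg1 and 20.8 and 21.4 CPM with sg2, against 9.27 and 8.71 CPM in sgNeg2 cells (log2 change 1.23 ± 0.08, adjusted p = 8.06e-10). Again no knockout library reached down to the controls, as the choice of these genes required. Ly6a, a surface protein anchored by glycosylphosphatidylinositol, had 12.5 to 13.9 CPM in knockout and 4.57 and 4.69 CPM in sgNeg2 cells (log2 change 1.48 ± 0.10, adjusted p = 2.26e-09). Ly6a has close paralogs, so reads may be split between them and its value is uncertain. Mest, a maternally imprinted gene, had 13.6 to 15.4 CPM in knockout and 4.93 and 5.67 CPM in sgNeg2 cells (log2 change 1.44 ± 0.10, adjusted p = 2.83e-09). Nrarp, a feedback regulator of Notch signalling, is described with its pathway.

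Large falls were fewer and included a transcription factor, stress-response genes and Hox genes. Tfap2a, the transcription factor AP-2 alpha, had 31.2 and 33.7 CPM with sg1 and 35 and 36.2 CPM with sg2, against 70.4 and 65.9 CPM in sgNeg2 cells (log2 change -1.0 ± 0.06, adjusted p = 1.68e-10). Every knockout library held far less than either control, with sg1 replicate 1 the lowest. Usp43, a deubiquitinating enzyme, had 5.80 and 5.51 CPM with sg1 and 5.13 and 4.91 CPM with sg2, against 11.7 and 10.8 CPM in sgNeg2 cells (log2 change -1.08 ± 0.11, adjusted p = 2.23e-07). Anxa4, another annexin, had 139.7 and 142 CPM with sg1 and 159 and 155 CPM with sg2, against 266 and 267 CPM in sgNeg2 cells (log2 change -0.84 ± 0.04, adjusted p = 8.00e-11). Its change ran opposite to that of Anxa6, and for neither gene did the groups overlap, as the choice of both required. Nptxr, a neuronal pentraxin receptor, had 4.89 to 7.13 CPM in knockout and 11 and 11.3 CPM in sgNeg2 cells (log2 change -0.93 ± 0.12, adjusted p = 7.56e-06), and Rusc2, a trafficking adaptor, had 36.5 to 45.3 CPM in knockout against 73.6 and 74.2 CPM in sgNeg2 cells (log2 change -0.85 ± 0.07, adjusted p = 4.69e-07).

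Among genes that changed at least 1.5-fold, those of highest CPM were taken in each direction, again only where the groups did not overlap. Plat, tissue plasminogen activator, had 166 and 164 CPM with sg1 and 167 and 165 CPM with sg2, against 87.6 and 84.8 CPM in sgNeg2 cells (log2 change 0.94 ± 0.04, adjusted p = 8.80e-13). Tmsb4x, the actin-sequestering thymosin beta, had 133 and 139 CPM with sg1 and 139.7 and 142 CPM with sg2, against 73.4 and 70.2 CPM in sgNeg2 cells (log2 change 0.95 ± 0.04, adjusted p = 3.73e-12), and it has near-identical copies that make its count uncertain. Each knockout library held more of these transcripts than either control, as their choice required. Flrt2, a fibronectin-like cell surface protein, had 200.4 to 215 CPM in knockout against 134 and 143 CPM in sgNeg2 cells (log2 change 0.59 ± 0.04, adjusted p = 2.48e-09), and Sgk1, a serum- and glucocorticoid-induced kinase, had 143 to 149.9 CPM in knockout against 92.3 and 96.8 CPM in sgNeg2 cells (log2 change 0.63 ± 0.04, adjusted p = 6.29e-10). Mat2a, which makes S-adenosylmethionine, the methyl donor, had 132 and 138 CPM with sg1 and 107 and 107 CPM with sg2, against 69.3 and 70.1 CPM in sgNeg2 cells (log2 change 0.79 ± 0.13, adjusted p = 0.00525). Its adjusted p was 0.0705 when sgNeg2 replicate 1 was left out and 0.0636 when sgNeg2 replicate 2 was. Mat2a was also lower with sg2 than with sg1 (sg2 minus sg1 -0.33 ± 0.04, adjusted p = 3.59e-10). Dhx9, an RNA helicase that separates the guides too, is given with them.

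Nrp2, a receptor for semaphorins and vascular growth factors, had 564 and 571 CPM with sg1 and 595 and 613 CPM with sg2, against 887 and 942 CPM in sgNeg2 cells (log2 change -0.64 ± 0.04, adjusted p = 8.45e-10). It was lower in all 4 knockout libraries. Lama5, a laminin chain of basement membranes, had 331 to 358 CPM in knockout and 524 and 564 CPM in sgNeg2 cells (log2 change -0.66 ± 0.04, adjusted p = 4.71e-10). Sema4c, a membrane semaphorin, had 129.8 to 146 CPM in knockout and 231 and 232 CPM in sgNeg2 cells (log2 change -0.74 ± 0.04, adjusted p = 2.81e-10). Ltbp3, which binds latent TGF-beta, had 307 to 349 CPM in knockout and 498 and 505 CPM in sgNeg2 cells (log2 change -0.61 ± 0.04, adjusted p = 3.88e-09), and Wipf1, an actin regulator, had 157 to 159 CPM in knockout against 237 and 244 CPM in sgNeg2 cells (log2 change -0.60 ± 0.03, adjusted p = 1.38e-10). In these genes too the groups did not overlap, which the rule that named them required. Between guides, Nrp2, Ltbp3 and Sema4c were called as higher with sg2 (adjusted p = 0.0341, 8.37e-05 and 0.00248).

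The direction of the calls went with the level of the gene. Under 1 CPM, 213 of 1589 genes rose and 7 fell (median log2 change 0.43). The filter on low counts bears on this low end. It let in 720 genes through the knockout libraries alone and 26 through the sgNeg2 libraries alone. The split under 1 CPM is thus partly set by the filter and is no test. Between 1 and 10 CPM, 373 of 2411 rose and 146 fell (median 0.06), and between 10 and 100 CPM 977 of 6269 rose and 1280 fell (median -0.01). Between 100 and 1000 CPM, 386 of 1836 rose and 618 fell (median -0.02). Above 1000 CPM, 8 of 120 genes rose (6.67%) and 89 fell (74.2%), with a median of -0.21. Of these 120 genes 42 were ribosomal protein genes, of which 39 fell and 0 rose, and of the other 78 genes 50 fell and 8 rose (median -0.18). The 10 genes with most counts took 9.43 to 9.99% of the counts in knockout libraries and 10.8 to 10.9% in sgNeg2 libraries.

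**Figure D2:**
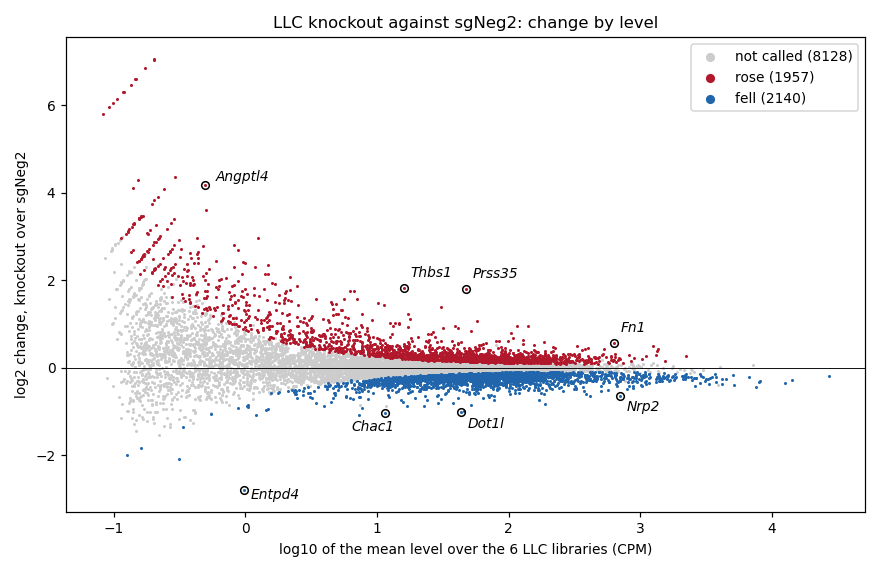
Log2 change of knockout over sgNeg2 against the log10 of the mean CPM over the 6 LLC libraries, 1 point per tested gene, red for the 1957 genes that rose and blue for the 2140 that fell. Large rises crowd the low end, while above 1000 CPM 89 of 120 genes fell. Of the 303 rises of at least 2-fold, 164 passed the filter on low counts in knockout only and so had to differ.

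Knockout libraries also held more genes with any count. Genes with at least 1 count numbered 14040 and 14112 with sg1 and 13923 and 14049 with sg2, against 13411 and 13527 with sgNeg2. Thinned to 49397883 counts each, they numbered 14024 and 14079 with sg1, 13923 and 14000 with sg2, and 13400 and 13488 with sgNeg2. All 4 knockout libraries remained above both sgNeg2 libraries at this equal depth, while sg2 replicate 2 lay above sg1 replicate 1 before thinning and below it after. With at least 5 counts the numbers were 12701, 12805, 12598 and 12736 in knockout and 12217 and 12296 in sgNeg2 cells. The filter on low counts let in 720 genes through the knockout libraries alone and 26 through the sgNeg2 libraries alone. Of the 303 rises of at least 2-fold, 256 lay under 1 CPM in sgNeg2 cells and 164 passed the filter in knockout only, so those 164 had to differ. Some of the 164 are counted among the rises of the gene lists below.

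Low counts were uneven in another way. Among counts of 2 to 9, 82.5 to 84.6% were even in knockout libraries and 83.7 and 82.2% in sgNeg2 libraries, while counts from 100 to under 1000 were even in 49.6 to 52.2%, so most low counts were even. The cause was not tested. Counting intervals and floors cover counting error only and take each count as separate. They may be too narrow where low counts are mostly even. With every count halved and rounded, 4078 genes were called, 3987 of them among the 4097, and 246 genes rose at least 2-fold. Of the 303 rises, 180 were called as rises of any size with each guide alone. At 2-fold or more, 238 were called with sg1 alone and 201 with sg2 alone.

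Low counts were also looked at in 76 genes chosen for at least 100 CPM in Hepa1-6 and under 0.1 CPM in LLC sgNeg2 cells. Of these, 28 were at 0 in all 6 LLC libraries, among them Alb (6881 CPM in Hepa1-6 libraries), Fgb, Krt19, Igfbp1 and Nrn1, and the summed level of the 76 was 3.64 to 4.38 CPM in knockout and 1.05 to 1.41 CPM in sgNeg2 cells, against 38999 CPM in Hepa1-6. The sgNeg2 sum is low by the choice of these genes, so its distance from the knockout sum is no test. Dcn, the matrix proteoglycan decorin, had 18, 15, 20 and 14 counts in the knockout libraries and 0 in both sgNeg2 libraries, at least 10.7-fold higher when set against 3 counts over both, and it had 357 CPM in Hepa1-6. Cxcl3, a neutrophil-attracting chemokine with 51.5 CPM in Hepa1-6, is not one of the 76. It had 96 counts over the knockout libraries and 2 over the sgNeg2 libraries. This was 24.2 times the sgNeg2 level per count of depth (95% exact interval 6.52 to 203). Dcn and Cxcl3 both passed the filter on low counts through the knockout libraries alone and so had to differ. A part of other libraries' RNA in these low counts was not tested.

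Few partners of DOT1L were called. On their list 5% rose and 10% fell, Dot1l included, beside 16% and 17.5% of all genes tested. Of 20 tested genes for the DOT1L complex and the elongation machinery, 1 rose and 2 fell, one of them Dot1l, and the median was 0.04 (0 rises without either sgNeg2 replicate and 2 without sg2 replicate 1). Aff1, a scaffold of the super elongation complex, had 41.9 and 38.9 CPM with sg1 and 40.2 and 40.8 CPM with sg2, against 48.7 and 50.6 CPM in sgNeg2 cells (log2 change -0.29 ± 0.05, adjusted p = 0.000155). Its knockout libraries lay below both controls. Mllt3, whose product AF9 recruits DOT1L, had 65.2 to 71.1 CPM in knockout and 60.9 and 62.0 CPM in sgNeg2 cells (log2 change 0.14 ± 0.05, adjusted p = 0.0287), and its adjusted p was 0.105, 0.181 and 0.0832 when sgNeg2 replicate 1, sgNeg2 replicate 2 or sg2 replicate 2 was left out. Mllt10, whose product AF10 stimulates the enzyme, did not pass the test (log2 change -0.10 ± 0.05, adjusted p = 0.191), nor did Kmt2a (-0.10 ± 0.06, adjusted p = 0.238), Men1 (0.07 ± 0.04, adjusted p = 0.185) or Cdk9, the elongation kinase (0.07 ± 0.04, adjusted p = 0.176). Of 39 histone methyltransferases and demethylases, Kmt2a again among them, 7 rose and 7 fell (17.9% each, near the shares of all genes tested), none by more than 0.34 on the log2 scale. The rises numbered 0 without sgNeg2 replicate 1 and 4 without sg1 replicate 1, and the falls numbered 4 without sgNeg2 replicate 2. Kdm6b, which removes a repressive methyl mark, was lowest (43.8 to 45.5 CPM in knockout against 54.1 and 55.2 CPM in sgNeg2 cells, log2 change -0.30 ± 0.05, adjusted p = 6.05e-05), and Ezh2 was not called (-0.03 ± 0.04, adjusted p = 0.612).

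Hox genes, the best-known dependents of DOT1L in leukaemia, had falls and no rise among their calls. Of 44 listed genes of the HOX clusters and their MEIS and PBX partners 15 had no count in LLC and 23 were tested. Among the 23, 0 rose (beside 16% of all genes tested) and 6 fell (26.1%, beside 17.5%), with a median of -0.12. Hoxa10 had 12 and 12.3 CPM with sg1 and 14.3 and 14.7 CPM with sg2, against 25.2 and 23.6 CPM in sgNeg2 cells (log2 change -0.88 ± 0.08, adjusted p = 1.65e-07). Hoxa9 had 11.4 and 12.4 CPM with sg1 and 13.9 and 12.8 CPM with sg2, against 23.4 and 20.4 CPM in sgNeg2 cells (log2 change -0.80 ± 0.08, adjusted p = 6.48e-07). Hoxd10 had 22.9 and 23.7 CPM with sg1 and 22.5 and 23.4 CPM with sg2, against 42.2 and 39.3 CPM in sgNeg2 cells (log2 change -0.82 ± 0.06, adjusted p = 3.16e-09). In these 3 homeobox genes every knockout library lay well below both controls, with both guides on that side. The rule for the largest falls, which named them, asked for this. Hoxd8 (42.7 to 51.0 CPM in knockout against 69.7 and 70.4 CPM in sgNeg2 cells, log2 change -0.58 ± 0.06, adjusted p = 5.59e-07), Meis2 (7.32 to 8.58 CPM in knockout against 9.87 and 10.1 CPM in sgNeg2 cells, log2 change -0.32 ± 0.10, adjusted p = 0.0176) and Pbx3 (16.9 to 19.5 CPM in knockout against 23.6 and 23.6 CPM in sgNeg2 cells, log2 change -0.36 ± 0.07, adjusted p = 0.000577) fell less. Meis1, the usual partner of HOXA9, did not pass the test (3.84 to 5.09 CPM in knockout against 4.72 and 5.44 CPM in sgNeg2 cells, log2 change -0.12 ± 0.14, adjusted p = 0.540). In all, 10 of the 23 lay wholly below sgNeg2 and 2 wholly above, beside 25.3% and 24.8% of all genes tested.

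**Figure D3:**
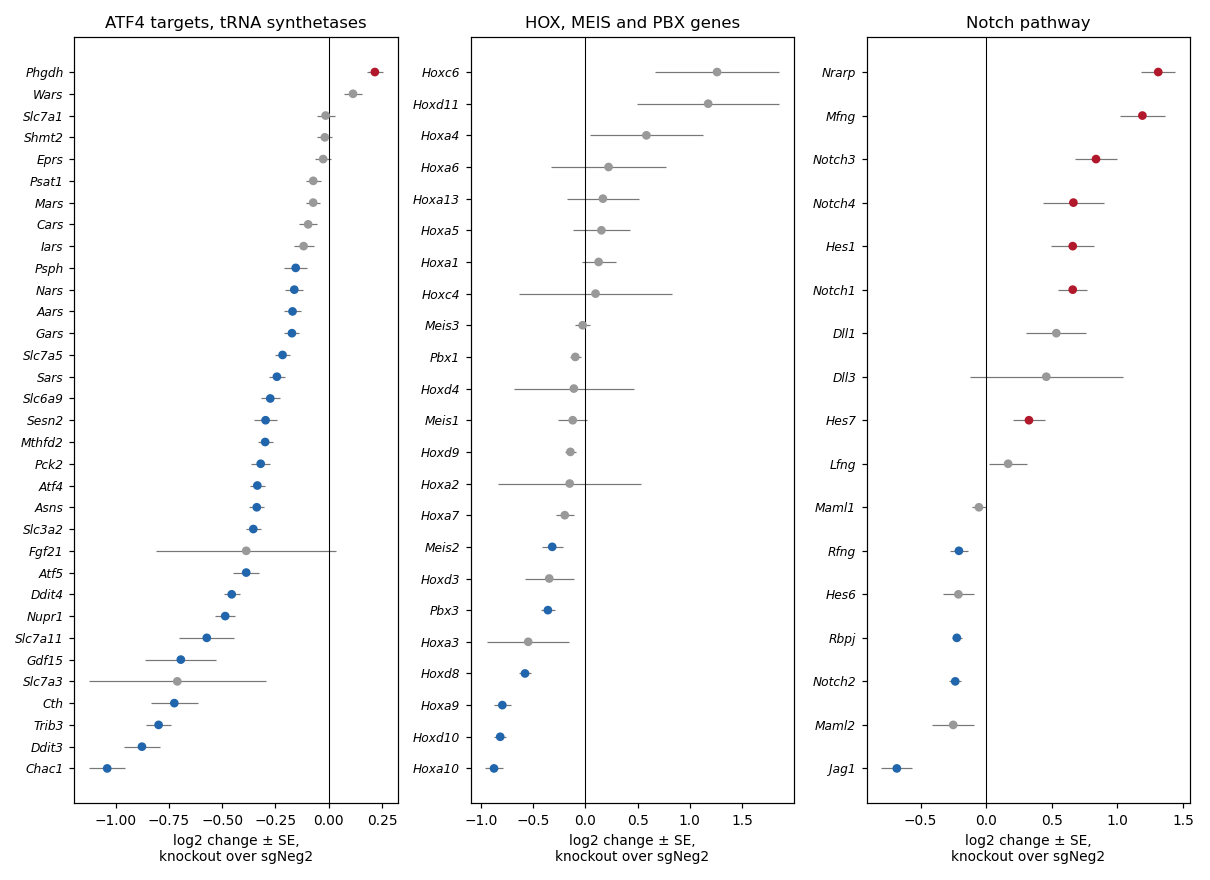
Log2 change ± SE of knockout over sgNeg2 for the tested members of 3 lists, red where a gene rose, blue where it fell and grey where it was not called. ATF4 targets lie mostly left of 0 (22 of 33 fell), the 6 called HOX, MEIS and PBX genes all fell, and the Notch genes run from Jag1 at -0.68 to Nrarp at 1.31.

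Of 33 tested targets of ATF4, the transcription factor that drives amino acid synthesis and uptake under stress, and tRNA synthetases, 22 fell (66.7%, beside 17.5% of all genes tested) and 1 rose (2 without either sg2 replicate). The median was -0.30, the other 10 were not called, and 26 lay wholly below the controls, beside 25.3% of all genes tested. Chac1, which degrades glutathione, had 8.23 and 8.01 CPM with sg1 and 8.46 and 9.02 CPM with sg2, against 17.5 and 17.2 CPM in sgNeg2 cells (log2 change -1.04 ± 0.08, adjusted p = 2.12e-08). Ddit3, which encodes the stress factor CHOP, had 15.4 and 16.5 CPM with sg1 and 20.4 and 18.9 CPM with sg2, against 33.4 and 31.8 CPM in sgNeg2 cells (log2 change -0.88 ± 0.08, adjusted p = 1.75e-07). Its sg1 libraries lay below its sg2 libraries (sg2 minus sg1 0.30 ± 0.08, adjusted p = 0.00833), and all 4 lay below the controls. Trib3, a pseudokinase induced by both factors, had 28.6 and 28.7 CPM with sg1 and 32.9 and 30.3 CPM with sg2, against 51.3 and 53.5 CPM in sgNeg2 cells (log2 change -0.80 ± 0.06, adjusted p = 5.40e-09). Cth, which makes cysteine, had 8.41 and 7.04 CPM with sg1 and 6.34 and 6.45 CPM with sg2, against 11.6 and 11.7 CPM in sgNeg2 cells (log2 change -0.72 ± 0.11, adjusted p = 4.63e-05). The control libraries were the highest in both genes. Named after their values were seen, Atf4 itself fell (237 to 251 CPM in knockout against 306 and 311 CPM in sgNeg2 cells, log2 change -0.33 ± 0.03, adjusted p = 3.40e-07), as did Asns, asparagine synthetase (347 to 371 CPM in knockout against 449.9 and 455 CPM in sgNeg2 cells, log2 change -0.34 ± 0.04, adjusted p = 5.88e-07), while Phgdh, the first enzyme of serine synthesis, was the member that rose (940.4 to 953 CPM in knockout against 793 and 833 CPM in sgNeg2 cells, log2 change 0.22 ± 0.04, adjusted p = 0.000201).

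More folding, lysosomal and redox genes fell than rose. Falls took 64.5% of the lysosome and autophagy genes and 44.4% of the NRF2 and glutathione genes, beside 17.5% of all genes tested. Rises took 3.23% and 13.9%, beside 16%. Of 21 endoplasmic reticulum folding genes 14 fell (66.7%) and 0 rose (median -0.14), 9 fell without sgNeg2 replicate 1 and 6 without sgNeg2 replicate 2. Ern1, the sensor IRE1 of unfolded proteins, had 22.9 and 24.7 CPM with sg1 and 23.3 and 24.6 CPM with sg2, against 37.6 and 37.3 CPM in sgNeg2 cells (log2 change -0.65 ± 0.06, adjusted p = 7.77e-08), and Herpud1, a degradation factor of that compartment, had 40.4 to 44.2 CPM in knockout against 53.8 and 56.6 CPM in sgNeg2 cells (log2 change -0.38 ± 0.05, adjusted p = 1.08e-05). Of 31 lysosome and autophagy genes 20 fell and 1 rose (0 without sgNeg2 replicate 2, median -0.21), among them Npc2, a cholesterol carrier of lysosomes (260.0 to 289 CPM in knockout against 383 and 390.5 CPM in sgNeg2 cells, log2 change -0.49 ± 0.04, adjusted p = 3.05e-08), Grn, progranulin (-0.48), Ctsb, the protease cathepsin B (-0.43), and Sqstm1, an autophagy receptor (-0.41). Of 36 tested NRF2 targets and glutathione genes 16 fell and 5 rose (2 rises without sgNeg2 replicate 1, 3 without sgNeg2 replicate 2 and 3 without sg1 replicate 2). Mgst2, a microsomal glutathione transferase, had 31.7 and 32.7 CPM with sg1 and 35.8 and 35.8 CPM with sg2, against 58.0 and 52.5 CPM in sgNeg2 cells (log2 change -0.70 ± 0.06, adjusted p = 3.67e-08), while Aldh3a1, an aldehyde dehydrogenase, had 1.39 and 1.40 CPM with sg1 and 1.20 and 0.910 CPM with sg2, against 0.522 and 0.215 CPM in sgNeg2 cells (log2 change 1.75 ± 0.38, adjusted p = 0.00144). The first was lower and the second higher in every knockout library than in either control.

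Most ribosomal protein genes fell, by small amounts. Of 49 tested 43 fell (87.8%) and 1 rose, with a median of -0.22, beside -0.18 in the other genes above 1000 CPM, and without sgNeg2 replicate 1 the falls numbered 27 and the rises 0. Their summed level was 97809 to 107825 CPM in knockout and 118584 and 124140 CPM in sgNeg2 cells, so the groups did not overlap. Rpl10 fell most (2860.3 to 3229 CPM in knockout against 3889 and 3997 CPM in sgNeg2 cells, log2 change -0.38 ± 0.05, adjusted p = 1.21e-05), followed by Rpl3 (-0.34) and Rps12 (-0.34). Such genes have many processed copies in the genome, and single values are uncertain. In the oxidative phosphorylation list 41.5% fell and 9.76% rose, beside 17.5% and 16% of all genes tested. In the list of MYC and ribosome biogenesis these shares were 14.8% and 44.4%. Of 41 oxidative phosphorylation genes 17 fell and 4 rose (median -0.06), with 6 falls without sgNeg2 replicate 1 and 2 rises without sgNeg2 replicate 2. Of 27 genes of MYC and ribosome biogenesis 12 rose and 4 fell (2 falls without either sgNeg2 replicate), with Myc itself lower (402 to 452 CPM in knockout against 519.7 and 534 CPM in sgNeg2 cells, log2 change -0.30 ± 0.04, adjusted p = 3.22e-05) and Nop56, a nucleolar box C/D protein, higher (316 to 351 CPM in knockout against 267 and 271 CPM in sgNeg2 cells, log2 change 0.32 ± 0.04, adjusted p = 1.02e-05).

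More cell cycle genes rose than fell, again by small amounts. Of 51 tested 29 rose (56.9%, beside 16% of all genes tested) and 5 fell (9.80%, beside 17.5%), with a median of 0.14, and 32 lay wholly above the controls, beside 24.8% of all genes tested. Ccne2, the S phase cyclin E, had 5.53 and 4.55 CPM with sg1 and 4.77 and 5.15 CPM with sg2, against 3.25 and 3.01 CPM in sgNeg2 cells (log2 change 0.68 ± 0.14, adjusted p = 0.000889). Cenpf, a kinetochore protein of mitosis, had 65.1 and 61.1 CPM with sg1 and 57.9 and 55.5 CPM with sg2, against 43.1 and 47.7 CPM in sgNeg2 cells (log2 change 0.40 ± 0.06, adjusted p = 4.19e-05). In both the knockout libraries were higher. Of the 5 that fell, 4 act in G1: Cdk6 (16.4 to 17.3 CPM in knockout against 21.5 and 23.5 CPM in sgNeg2 cells, log2 change -0.41 ± 0.07, adjusted p = 0.000128), Cdk4 (-0.20), Ccnd1 (-0.17) and the licensing factor Cdt1 (-0.37), and the other was the phosphatase Cdc25b (-0.12). Of the inhibitors of these kinases, Cdkn1a had 29.9 and 30.5 CPM with sg1 and 28.6 and 30.9 CPM with sg2, against 17.3 and 17.9 CPM in sgNeg2 cells (log2 change 0.77 ± 0.06, adjusted p = 2.91e-08). Cdkn1b had 26.2 and 26.9 CPM with sg1 and 30.6 and 28.3 CPM with sg2, against 42.3 and 42.5 CPM in sgNeg2 cells (log2 change -0.60 ± 0.06, adjusted p = 4.26e-07), and Cdkn2c had 53.7 and 49.6 CPM with sg1 and 53 and 53.3 CPM with sg2, against 84.4 and 86.0 CPM in sgNeg2 cells (log2 change -0.70 ± 0.04, adjusted p = 8.75e-10). The first was higher, the other two were lower, in every knockout library than in the controls. Cdkn1a was also the 1 member of 24 tested p53 targets that rose, while 8 fell (4 without sgNeg2 replicate 1), and Cdkn2a and Cdkn2b had no count. Of 36 DNA repair genes 13 rose and 3 fell (5 rises without sgNeg2 replicate 1, and 1 fall without either sgNeg2 replicate, sg1 replicate 2 or sg2 replicate 2). Among p53 targets 33.3% fell and 4.17% rose, and among DNA repair genes 8.33% and 36.1%, beside 17.5% and 16% of all genes tested. The share of counts in histone genes was 0.110 to 0.115% in knockout and 0.0936 and 0.0946% in sgNeg2 libraries, and no measure of cell number or growth was used here.

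**Figure D4:**
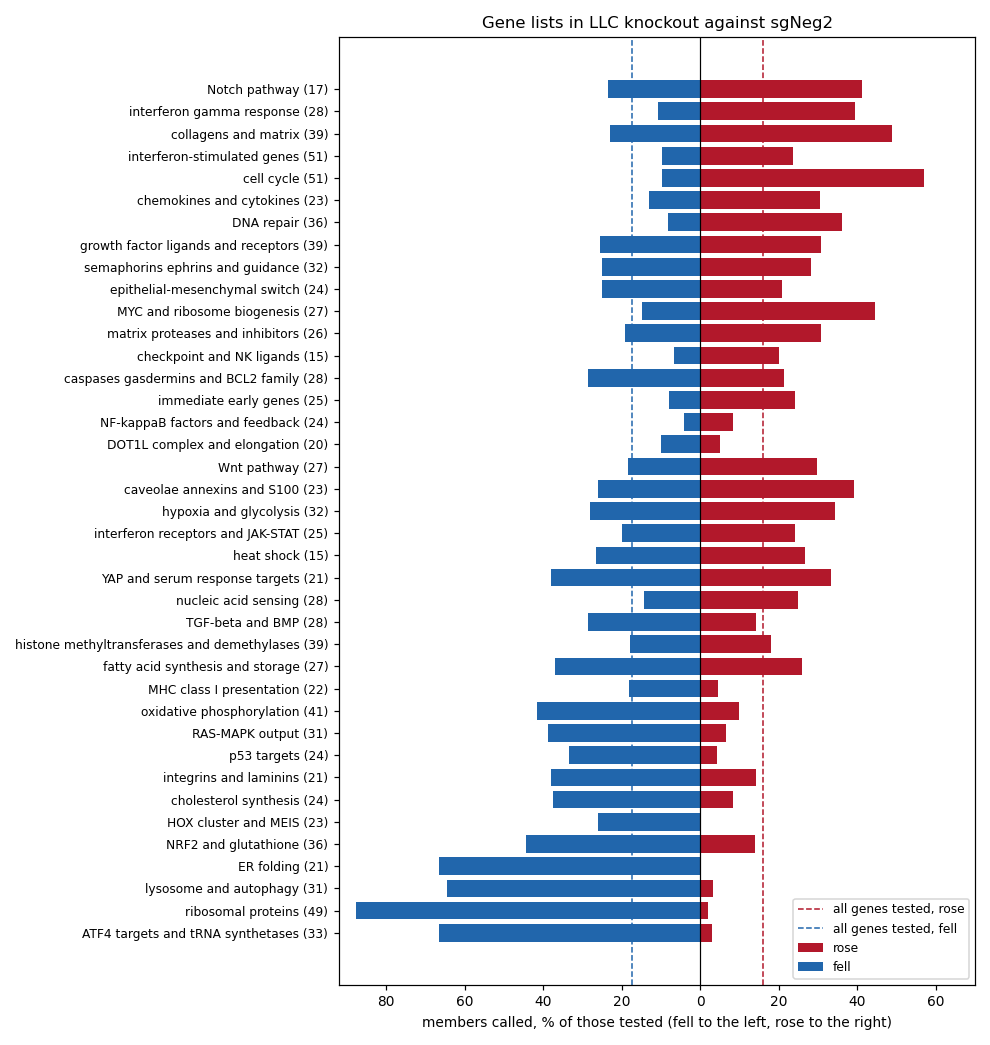
Share of the tested members that rose (red, to the right) or fell (blue, to the left) in lists with at least 15 tested members, whose number stands in brackets, ordered by median log2 change; dashed lines mark all genes tested (16% rose, 17.5% fell). ER folding, ATF4, lysosomal and ribosomal protein genes extend to the left, and cell cycle genes to the right, while matrix and Notch genes pass the dashed lines on both sides.

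Collagens and other matrix genes changed in both directions. Of 39 tested 19 rose (48.7%, beside 16% of all genes tested) and 9 fell (23.1%, beside 17.5%), with a median of 0.27. Dcn, Col1a1, Eln and Col1a2 are among the 19, but passed the filter through the knockout libraries alone and so had to differ. Which of the other rises passed it in this way is not given here. Among those that rose were interstitial matrix genes named after their values were seen: Fn1, fibronectin, had 737 and 733 CPM with sg1 and 673 and 694 CPM with sg2, against 453 and 513 CPM in sgNeg2 cells (log2 change 0.55 ± 0.05, adjusted p = 6.00e-08). Col3a1, a fibrillar collagen, had 1376 to 1402 CPM in knockout and 972 and 987 CPM in sgNeg2 cells (log2 change 0.51 ± 0.04, adjusted p = 1.13e-08). Fbn1, fibrillin, had 65.3 to 75.1 CPM in knockout against 31.0 and 35.4 CPM in sgNeg2 cells (log2 change 1.06 ± 0.06, adjusted p = 5.38e-10), and Tgfbi, a matrix protein induced by TGF-beta, had 16.1 to 19.3 CPM in knockout against 8.62 and 8.93 CPM in sgNeg2 cells (log2 change 1.02 ± 0.09, adjusted p = 6.00e-08). Col1a2, a chain of collagen I, had 1.37 and 1.74 CPM with sg1 and 1.08 and 0.910 CPM with sg2, against 0.441 and 0.143 CPM in sgNeg2 cells (log2 change 2.15 ± 0.43), and it passed the filter through the knockout libraries alone. All these stood above the controls in every knockout library. Among the 9 that fell were basement membrane genes: Col4a1 (-0.32), Col4a2 (-0.17), Nid1 (-0.31), the perlecan gene Hspg2 (-0.30) and Agrn (-0.34).

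Genes for proteins that bind or cut the matrix also changed in both directions. Rises took 30.8% of the matrix proteases and inhibitors and 39.1% of the genes of caveolae, annexins and S100 proteins. Falls took 19.2% and 26.1%. All genes tested gave 16% rises and 17.5% falls. Of 21 integrins and laminins 8 fell (38.1%) and 3 rose (14.3%). Itgb3, an integrin that binds vitronectin, had 3.19 and 2.90 CPM with sg1 and 3.55 and 3.31 CPM with sg2, against 1.83 and 1.79 CPM in sgNeg2 cells (log2 change 0.84 ± 0.17, adjusted p = 0.000865). No knockout library was as low as the controls. Of 26 matrix proteases and inhibitors 8 rose and 5 fell. Mmp13, a collagenase, had 2.12 and 2.57 CPM with sg1 and 3.39 and 2.25 CPM with sg2, against 1.04 and 1.40 CPM in sgNeg2 cells (log2 change 1.07 ± 0.23, adjusted p = 0.00133), and all 4 knockout libraries lay above both controls. Of 23 genes of caveolae, annexins and S100 proteins 9 rose and 6 fell (2 falls without sgNeg2 replicate 1), and Sdpr, a caveolar coat protein, had 19.7 to 22.7 CPM in knockout against 9.52 and 10.5 CPM in sgNeg2 cells (log2 change 1.11 ± 0.08, adjusted p = 5.98e-09).

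Markers of other cell types were checked beside these genes. Of 9 tested fibroblast markers 6 rose (66.7%, beside 16% of all genes tested) and 0 fell (beside 17.5%), but 4 of those 6 were also matrix genes on the list above. Among these, Dcn, Col1a1 and Col1a2 passed the filter on low counts through the knockout libraries alone and so had to differ. The others were Pdgfra, a receptor for platelet-derived growth factor (log2 change 0.34 ± 0.04, adjusted p = 2.87e-06), and Gli1, a Hedgehog target (log2 change 0.95 ± 0.22, adjusted p = 0.00192). The adjusted p of Gli1 was 0.0678 without sgNeg2 replicate 2. The 14 markers summed to 3356 to 3500 CPM in knockout and 3093 and 3134 CPM in sgNeg2 cells, and Thy1, Fap and Tcf21 had no count in any LLC library. Lung epithelial markers summed to 302 to 316 CPM in knockout and 321 and 334 CPM in sgNeg2 cells, and Nkx2-1, the defining factor of lung epithelium, Sftpd, Krt5 and Sox2 were among 8 of 27 at 0 throughout. Leukocyte markers summed to 17.0 to 18.6 CPM in knockout and 18.6 and 18.9 CPM in sgNeg2 cells, with 10 of 23 at 0, and endothelial markers to 93.7 to 99.6 CPM in knockout and 106 and 108 CPM in sgNeg2 cells, with 3 of 12 at 0. Hepatocyte markers summed to 3.41 to 4.39 CPM in knockout and 2.75 and 2.88 CPM in sgNeg2 cells, with 9 of 20 at 0. The part of other cell types in the matrix changes was not tested. In bulk RNA a change in the number of cells of a type and a change of RNA per cell cannot be told apart.

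Notch genes moved in both directions. Their shares stand beside 16% of all genes tested for rises and 17.5% for falls. Of 17 tested 7 rose (41.2%) and 4 fell (23.5%), with a median of 0.33, and without sgNeg2 replicate 2 the rises numbered 4. Nrarp, which is induced by Notch and limits it, had 6.31 and 6.44 CPM with sg1 and 6.94 and 6.98 CPM with sg2, against 2.75 and 2.63 CPM in sgNeg2 cells (log2 change 1.31 ± 0.13, adjusted p = 2.92e-07). Hes1, a repressor induced by Notch, had 3.47 to 4.48 CPM in knockout and 2.36 and 2.73 CPM in sgNeg2 cells (log2 change 0.66 ± 0.16, adjusted p = 0.00360), and its adjusted p was 0.0654 when sgNeg2 replicate 2 was left out. Both targets were higher in every knockout library. Among receptors Notch3 had 3.61 and 3.53 CPM with sg1 and 3.59 and 4.04 CPM with sg2, against 1.97 and 2.16 CPM in sgNeg2 cells (log2 change 0.84 ± 0.16, adjusted p = 0.000449), and Notch1 had 13.1 and 12.8 CPM with sg1 and 9.85 and 11.7 CPM with sg2, against 7.38 and 7.66 CPM in sgNeg2 cells (log2 change 0.66 ± 0.11, adjusted p = 0.000137), whereas Notch2 had 109 to 117 CPM in knockout and 128 and 141 CPM in sgNeg2 cells (log2 change -0.24 ± 0.04, adjusted p = 0.000329). The receptor that fell was thus Notch2. The ligand Jag1 had 4.56 and 4.40 CPM with sg1 and 5.13 and 5.2 CPM with sg2, against 7.52 and 7.92 CPM in sgNeg2 cells (log2 change -0.68 ± 0.12, adjusted p = 0.000153). Mfng, which glycosylates the receptors, had 3.57 to 4.52 CPM in knockout against 1.60 and 1.88 CPM in sgNeg2 cells (log2 change 1.19 ± 0.17, adjusted p = 2.35e-05), and Rbpj, the factor that carries the signal to DNA, had 754 to 777 CPM in knockout against 866 and 914 CPM in sgNeg2 cells (log2 change -0.22 ± 0.04, adjusted p = 0.000128). Hes1, Notch1, Notch2 and Rbpj were chosen after their values were seen.

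Of 31 tested outputs of the RAS-MAPK pathway 12 fell (38.7%) and 2 rose (6.45%, 1 rise without sgNeg2 replicate 1 or sg1 replicate 2), among them the phosphatases Dusp10 (13 to 16.3 CPM in knockout against 21.6 and 22.5 CPM in sgNeg2 cells, log2 change -0.58 ± 0.08, adjusted p = 1.99e-05) and Dusp4 (154 to 185 CPM in knockout against 241 and 244 CPM in sgNeg2 cells, log2 change -0.52 ± 0.05, adjusted p = 5.78e-07), which switch off the kinases. Of 27 Wnt genes 8 rose and 5 fell, and the rises numbered 4 without sgNeg2 replicate 1, 2 without sgNeg2 replicate 2 and 5 without sg1 replicate 1. Rises took 29.6% of the Wnt genes, 28.1% of the guidance genes and 38.5% of the neuronal genes, beside 16% of all genes tested. Falls took 18.5%, 25% and 7.69%, beside 17.5%. Of the Wnt rises, Wnt4 and Dkk2 passed the filter on low counts through the knockout libraries alone, as did Plxnb1 among the guidance rises. These genes thus had to differ. Wnt7b, a ligand, had 56.7 to 61.6 CPM in knockout against 91.3 and 95 CPM in sgNeg2 cells (log2 change -0.66 ± 0.04, adjusted p = 1.70e-09). Wnt4, another ligand, had no count in sgNeg2 libraries and 28 counts over the knockout libraries, with none in sg1 replicate 2, at least 4.36-fold higher when set against 3 counts over both. It passed the filter through the knockout libraries alone, and its adjusted p of 0.0468 was 0.0716 with a replicate block, 0.179 without sgNeg2 replicate 1 and 0.196 without sgNeg2 replicate 2. Of 32 guidance genes 9 rose and 8 fell (4 rises without sgNeg2 replicate 1), and Ntn4, a netrin, had 3.31 to 5.51 CPM in knockout against 1.89 and 2.43 CPM in sgNeg2 cells (log2 change 1.12 ± 0.19, adjusted p = 0.000168). Of 24 genes of the epithelial-mesenchymal switch 5 rose (20.8%) and 6 fell (25%), shares near those of all genes, with 1 rise without sgNeg2 replicate 1 and 3 falls without either sgNeg2 replicate. Cldn1 and Jup, among the 5 that rose, passed the filter on low counts through the knockout libraries alone and so had to differ. Vim, the mesenchymal filament protein vimentin, had 3561 to 3963 CPM in knockout against 4866 and 4942 CPM in sgNeg2 cells (log2 change -0.38 ± 0.05, adjusted p = 1.03e-05). Of 13 tested neuronal genes 5 rose and 1 fell (0 falls without sgNeg2 replicate 1), with Uchl1 (0.60), Map2 (0.59) and Nes (0.41) beside Prph.

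Of 51 tested interferon-stimulated genes 12 rose (23.5%, beside 16% of all genes tested) and 5 fell (9.80%, beside 17.5%), with a median of 0.16, and the other 34 were not called. There were 7 rises without sgNeg2 replicate 1 and 2 falls without sgNeg2 replicate 2, and the summed level of the list was 720 to 739 CPM in knockout and 723 and 735 CPM in sgNeg2 cells. Lgals9, a galectin, had 28.6 and 30.1 CPM with sg1 and 29.0 and 25.5 CPM with sg2, against 16.5 and 16.6 CPM in sgNeg2 cells (log2 change 0.77 ± 0.07, adjusted p = 1.50e-07). Epsti1 had 1.11 and 1.04 CPM with sg1 and 1.06 and 0.960 CPM with sg2, against 0.321 and 0.250 CPM in sgNeg2 cells (log2 change 1.87 ± 0.37, adjusted p = 0.000586), and Ifi203, a DNA-binding protein with close copies that make its count uncertain, had 1.99 to 2.06 CPM in knockout against 0.376 and 0.421 CPM in sgNeg2 cells (log2 change 2.34 ± 0.27, adjusted p = 1.90e-06). These 3 were higher in all knockout libraries, the last 2 at very low levels. Cmpk2, also among the 12 rises, passed the filter on low counts through the knockout libraries alone and so had to differ. Isg15, a ubiquitin-like modifier, did not pass the test (1.57 to 1.66 CPM in knockout against 1.24 and 1.40 CPM in sgNeg2 cells, log2 change 0.29 ± 0.22, adjusted p = 0.345), nor did Ifit1 (0.136 to 0.529 CPM in knockout against 0.125 and 0.281 CPM in sgNeg2 cells, log2 change 0.81 ± 0.61, adjusted p = 0.331). Of 28 genes of the interferon gamma response 11 rose and 3 fell (7 rises without sgNeg2 replicate 2 and 1 fall without sgNeg2 replicate 1). These rises were 39.3% and these falls 10.7% of the list, beside 16% and 17.5% of all genes tested. The largest rises of the list rest on 2 to 7 counts over the sgNeg2 libraries. They passed the filter on low counts through the knockout libraries alone and so had to differ. Irf1 had 13.4 to 15.5 CPM in knockout and 9.83 and 10.6 CPM in sgNeg2 cells (log2 change 0.50 ± 0.09, adjusted p = 0.000201), and Irf8 had 5.2 to 6.30 CPM in knockout against 2.67 and 3.51 CPM in sgNeg2 cells (log2 change 0.88 ± 0.15, adjusted p = 0.000112), both transcription factors that interferon gamma induces. Irf1 and Irf8 were chosen after their values were seen. Socs3, a feedback inhibitor of cytokine signalling, had 35.4 to 44.7 CPM in knockout against 55.9 and 58.1 CPM in sgNeg2 cells (log2 change -0.54 ± 0.07, adjusted p = 1.45e-05).

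Of 22 tested genes of class I antigen presentation 4 fell (18.2%, near the 17.5% of all genes tested) and 1 rose (4.55%). B2m, the light chain of class I molecules, had 447 and 455 CPM with sg1 and 508 and 489 CPM with sg2, against 582 and 557 CPM in sgNeg2 cells (log2 change -0.26 ± 0.05, adjusted p = 0.000159). H2-D1, a heavy chain with close paralogs, had 86.4 to 91.5 CPM in knockout against 99.8 and 104 CPM in sgNeg2 cells (log2 change -0.19 ± 0.04, adjusted p = 0.00123), while H2-K1 was not called (log2 change 0.13 ± 0.05, adjusted p = 0.0613). Psmb8, a subunit of the immunoproteasome, had 15.4 to 17.8 CPM in knockout against 11.8 and 12.8 CPM in sgNeg2 cells (log2 change 0.42 ± 0.08, adjusted p = 0.000672). B2m and H2-D1 were thus lower and Psmb8 higher in every knockout library. Rises took 20% of the checkpoint genes and NK cell ligands and 30.4% of the chemokines and cytokines, beside 16% of all genes tested. Falls took 6.67% and 13%, beside 17.5%. Cxcl3 and Cxcl5, among the chemokines that rose, passed the filter on low counts through the knockout libraries alone and so had to differ. Of 15 checkpoint genes and ligands of NK cells 3 rose and 1 fell: Nt5e, Tnfrsf9, a costimulatory receptor (3.0 to 3.69 CPM in knockout against 1.48 and 1.75 CPM in sgNeg2 cells, log2 change 1.04 ± 0.18, adjusted p = 0.000159), and Lgals9 were higher. Cd274, the ligand PD-L1, had 2.21 to 2.52 CPM in knockout and 3.47 and 3.51 CPM in sgNeg2 cells (log2 change -0.54 ± 0.16, adjusted p = 0.0114), and its adjusted p was 0.0720 when sgNeg2 replicate 1 was left out and 0.0629 when sgNeg2 replicate 2 was. Of 23 chemokines and cytokines 7 rose and 3 fell (4 and 1 without sgNeg2 replicate 1).

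Metabolic lists were mixed. Rises took 8.33% of cholesterol synthesis genes, 25.9% of fatty acid genes, 34.4% of hypoxia and glycolysis genes and 26.7% of heat shock genes. Falls took 37.5%, 37%, 28.1% and 26.7%. All genes tested gave 16% rises and 17.5% falls. Of 24 cholesterol synthesis genes 9 fell and 2 rose (0 rises without either sgNeg2 replicate, 1 without either sg1 replicate), with Mvd, mevalonate decarboxylase, at 53.2 to 60.4 CPM in knockout against 76.9 and 77.6 CPM in sgNeg2 cells (log2 change -0.45 ± 0.05, adjusted p = 1.28e-06) and Insig1, the sterol sensor, at 50.7 to 56.7 CPM in knockout against 69.8 and 69.8 CPM in sgNeg2 cells (log2 change -0.39 ± 0.05, adjusted p = 7.69e-06). Of 27 genes of fatty acid synthesis and storage 10 fell and 7 rose: Scd1, the desaturase, had 418 to 456 CPM in knockout against 630.0 and 632 CPM in sgNeg2 cells (log2 change -0.53 ± 0.04, adjusted p = 3.59e-09), and Fabp5, a fatty acid carrier, had 29.4 to 32.0 CPM in knockout against 16.7 and 18.3 CPM in sgNeg2 cells (log2 change 0.82 ± 0.07, adjusted p = 2.26e-08). Fabp4, its adipocyte relative, had 0.639 and 0.580 CPM with sg1 and 0.662 and 0.529 CPM with sg2, against 0.120 and 0.0716 CPM in sgNeg2 cells (log2 change 2.63 ± 0.55). Angptl4, a secreted inhibitor of lipoprotein lipase, is not on this list. It had 0.657 and 0.784 CPM with sg1 and 0.922 and 0.529 CPM with sg2, against 0.0401 and 0.0358 CPM in sgNeg2 cells (log2 change 4.17 ± 0.65). Both passed the filter on low counts through the knockout libraries alone and so had to differ, and Angptl4 rests on 4 counts over the sgNeg2 libraries. Of 32 hypoxia and glycolysis genes 11 rose and 9 fell, with Ldha, lactate dehydrogenase, at 1459.8 to 1525 CPM in knockout against 1093 and 1124 CPM in sgNeg2 cells (log2 change 0.43 ± 0.04, adjusted p = 1.83e-07). Of 15 heat shock genes 4 rose and 4 fell.

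The guides gave close but not equal profiles. Between sg2 and sg1, 735 of 12225 genes were called (6.01%), 408 higher (3.34%) and 327 lower (2.67%) with sg2, and 1 of these (0.00818%) was lower with sg2 by 2-fold or more. This count rests on single libraries: it was 242 without sg1 replicate 1, 227 without sg1 replicate 2, 240 without sg2 replicate 1 and 395 without sg2 replicate 2, and 1143 and 1145 without sgNeg2 replicate 1 and 2. Dhx9 had 137 and 142 CPM with sg1 and 102 and 110.3 CPM with sg2, against 78.2 and 76.6 CPM in sgNeg2 cells (sg2 minus sg1 -0.39 ± 0.04, adjusted p = 4.27e-12). Tfrc, the transferrin receptor, had 101 and 101 CPM with sg1 and 75.7 and 77.6 CPM with sg2, against 60.4 and 63.2 CPM in sgNeg2 cells (sg2 minus sg1 -0.40 ± 0.04, adjusted p = 3.52e-11). For Tfrc the sg1 libraries were the higher ones. Rsph3a, a radial spoke protein of cilia with a near-identical copy, had 20.4 and 17.4 CPM with sg1 and 32.7 and 27.1 CPM with sg2, against 28.3 and 25 CPM in sgNeg2 cells (sg2 minus sg1 0.66 ± 0.08, adjusted p = 9.07e-07). Both comparisons with sgNeg2 share the same 2 control libraries: with sg1 alone 4898 genes were called and with sg2 alone 3513. As a change of knockout over sgNeg2, Dhx9 gave 0.67 ± 0.17 (adjusted p = 0.0431). Its adjusted p was 0.0561 with no filter on low counts and 0.0573 with a replicate block. That p was 0.186 without sgNeg2 replicate 1, 0.196 without sgNeg2 replicate 2, 0.0708 without sg1 replicate 1 and 0.0589 without sg2 replicate 2.

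Knockout in LLC was then compared with knockout in the liver lines, in 1 fit of the 18 mouse libraries. The effect in LLC differed from that in Hepa1-6 for 3493 of 14195 genes (24.6%), higher in LLC for 2176 (15.3%) and lower for 1317 (9.28%). It differed from that in Hep53.4 for 4151 (29.2%), higher in LLC for 2243 (15.8%) and lower for 1908 (13.4%). At 2-fold or more, 291 genes were higher (2.05%) and 113 lower (0.796%) in LLC than in Hepa1-6, and 296 higher (2.09%) and 131 lower (0.923%) than in Hep53.4. These differences share the LLC libraries. In their own fits Hepa1-6 had 1811 rises (14.5%) and 2284 falls (18.3%), with 194 (1.55%) and 22 (0.176%) of at least 2-fold, and Hep53.4 had 2378 rises (19.4%) and 2411 falls (19.7%), with 210 (1.72%) and 25 (0.204%) of at least 2-fold. For Dot1l itself the difference was 0.49 ± 0.12 against Hepa1-6 (adjusted p = 0.00246) and -0.34 ± 0.12 against Hep53.4 (adjusted p = 0.0349), so the fall of the transcript in LLC lay between theirs.

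Prss35 and Thbs1 changed more in LLC than in both other lines. Prss35 differed by 3.57 ± 0.69 from Hepa1-6 (adjusted p = 0.000263) and by 1.82 ± 0.09 from Hep53.4 (adjusted p = 2.35e-14), but Hepa1-6 held only 0.0513 CPM in knockout and 0.162 CPM in sgNeg2 cells. Thbs1 differed by 2.33 ± 0.07 (adjusted p = 6.14e-22) and 1.62 ± 0.08 (adjusted p = 9.24e-17), with 915 CPM in knockout and 1265 CPM in sgNeg2 cells of Hepa1-6 and 62.5 CPM in knockout and 53.6 CPM in sgNeg2 cells of Hep53.4. In Hepa1-6, where its level was far above that in LLC, Thbs1 fell (-0.47), and in Hep53.4 it rose by less than in LLC (0.22). Aqp1 differed by 2.55 ± 0.59 (adjusted p = 0.00421) and 1.43 ± 0.22 (adjusted p = 0.000125), but Hepa1-6 held only 0.307 CPM in knockout and 0.555 CPM in sgNeg2 cells, and its own change there was not called (adjusted p = 0.339). Tgm2 differed by 1.86 ± 0.11 (adjusted p = 8.31e-13) and 1.55 ± 0.12 (adjusted p = 5.88e-11). On the other side, Itgb7, a leukocyte integrin chain, differed by -1.10 ± 0.21 (adjusted p = 0.00157) and -1.41 ± 0.27 (adjusted p = 0.00117), and Htra1, a secreted protease, by -1.03 ± 0.10 (adjusted p = 1.04e-09) and -1.52 ± 0.18 (adjusted p = 5.32e-08). In LLC both fell, Itgb7 with 64.8 to 71.7 CPM in knockout against 91.2 and 94.0 CPM in sgNeg2 cells and Htra1 with 90.6 to 101 CPM in knockout against 141 and 144 CPM in sgNeg2 cells.

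**Figure D5:**
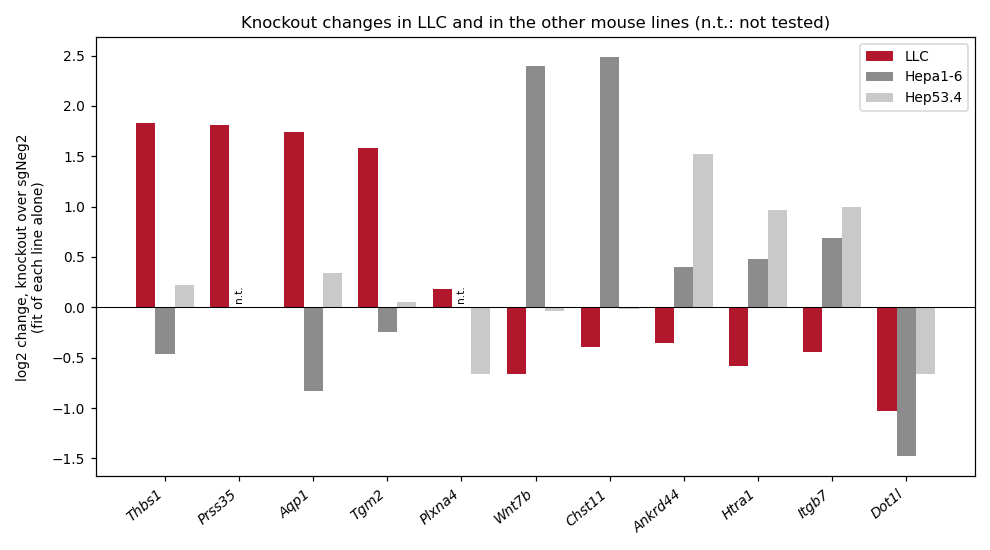
Log2 change of knockout over sgNeg2 in LLC (red), Hepa1-6 (dark grey) and Hep53.4 (light grey) for the genes whose change differed most between LLC and both other lines, and for Dot1l; n.t. marks a gene not tested in that line alone. Thbs1, Aqp1 and Tgm2 stand above 1.5 in LLC and below 0.4 in the other lines, Prss35 stands above 1.5 in LLC and at 0.01 in Hep53.4 and was not tested in Hepa1-6, and Dot1l fell in all 3.

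Ribosomal protein genes, of which 43 fell in LLC, had 21 rises and 0 falls in Hepa1-6 and 44 rises and 0 falls in Hep53.4, and the difference was called lower in LLC for 43 and 44 genes and higher for 0 in both. Of the ATF4 list 13 rose and 6 fell in Hepa1-6 and 5 rose and 17 fell in Hep53.4, and of 34 members the effect in LLC was lower than in Hepa1-6 for 17 and higher for 0, and lower than in Hep53.4 for 12 and higher for 6. Cell cycle genes had 3 rises and 14 falls in Hepa1-6 and 14 rises and 15 falls in Hep53.4, and the effect in LLC was higher than in Hepa1-6 for 24 and lower for 1, and higher than in Hep53.4 for 18 and lower for 6. Of interferon-stimulated genes 12 of 51 rose in LLC, 35 of 59 in Hepa1-6 and 10 of 46 in Hep53.4. Of 60 members the effect in LLC was higher than in Hepa1-6 for 9 and lower for 7, and higher than in Hep53.4 for 9 and lower for 6. Over all 14195 genes 15.3% were higher and 9.28% lower than in Hepa1-6, and 15.8% higher and 13.4% lower than in Hep53.4.

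Of the 1764 genes that rose in LLC and were tested in both lines, 344 also rose in Hepa1-6 (19.5% of those of LLC and 21.9% of those of Hepa1-6), beside 14.3% of all genes tested in both, and 280 fell there. Genes that fell in Hepa1-6 or Hep53.4 were 19.4% and 20.6% of those tested in both, and those that rose in Hep53.4 were 19.4%. Falls were shared by 604 genes (29.5% of those of LLC and 28.4% of those of Hepa1-6). With Hep53.4, 312 rises were shared (17.8% and 14.6%) and 534 genes that rose in LLC fell there, and 337 falls were shared (16.2% and 14.8%) while 762 genes that fell in LLC rose there. Across genes the log2 changes gave a Pearson correlation of 0.18 and a Spearman correlation of 0.13 with Hepa1-6 (10968 genes), and of 0.11 and -0.11 with Hep53.4 (11020 genes), as a description, since genes are not independent replicates and the lines share a library kit. Of the 303 rises of at least 2-fold 48 also rose in Hepa1-6 and 55 in Hep53.4, where 206 and 175 of them were tested, and 17 rose in both.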

How the data were processed

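RNA was sequenced from 6 LLC libraries, and the 12 libraries of Hepa1-6 and Hep53.4 were used for line differences. The authors deposited 1 table of raw counts per library over 22673 gene symbols, and no normalization is stated. Per the submitters' processing notes, the tools were HISAT2 2.2.1, Trim Galore, DESeq2 1.36.0 and SAMtools 1.9, and both mm10 and hg38 are named, with no roles. Which program counted reads, on which strand and with which gene models is not given in the sources used here. Antisense and overlapping genes are therefore uncertain. Lines with no symbol were dropped (1721 in each Hepa1-6 sgNeg2 file, 1 in each Hep53.4 sgNeg2 file).

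The tests used edgeR 4.0.16 (R 4.3.3): filterByExpr (minimum count 10, minimum total 15), TMM scaling, robust quasi-likelihood F tests, and Benjamini-Hochberg adjustment over all genes tested, with calls at an adjusted p below 0.05. Standard errors come from the F statistic. The 4 knockout libraries were set against 2 sgNeg2 libraries, the guides were compared in a fit of 3 groups, and lines in a joint fit. Library totals were 49397883 to 59686358 counts, so that counting error weighs mainly on genes of low CPM. Simulated libraries with 200 altered genes were used to check each test.

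The members and the 49 gene lists were chosen with earlier results of these data known. Named were Dot1l, the 12 largest rises and falls at a mean of 5 CPM or more with no overlap between groups and both guides alike, the 6 genes of highest CPM with a 1.5-fold change each way, up to 4 called members of each list with at least 3 calls, and 5 genes in each direction for lines and guides; other genes were named after their values were seen. Some genes that the rule names are not reported here, though counts include them. Alternatives were RLE scaling, DESeq2 1.42.0, no filter, a replicate block, each library left out, guides apart, a joint fit and a 2-fold threshold. Halved counts, equal depth and a minimum of 5 counts for detected genes were added after the data had been seen. Replicates of a group differed by more than sampling noise (chi-square per degree of freedom 5.20 to 8.36). Replicate numbers were not taken to pair libraries.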

Additional observations from a re-analysis of the deposited data

Results flagged for a closer look

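Dixon's test at 95% sets 1 of 4 libraries apart by chance for about 1 in 20 genes tested. Within the 4 knockout libraries, 1 library stood apart from the other 3 by this test for 7 of the 200 named genes. The library was the highest in 6 of them: sg2 replicate 1 for Ly6a (13.9 CPM) and Gadd45a (11.9 CPM), sg2 replicate 2 for Notch3 (4.04 CPM), sg1 replicate 1 for Eln (0.967 CPM), and sg1 replicate 2 for Cldn1 (0.511 CPM) and Plxnb1 (0.699 CPM). For Cycs, sg1 replicate 1 was the lowest (152 CPM).

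The knockout effect differed between LLC and both liver lines for 10 named genes, by the test of the difference in the joint fit. It was higher in LLC than in Hepa1-6 by 3.57 for Prss35, 2.55 for Aqp1, 2.33 for Thbs1, 1.86 for Tgm2 and 2.49 for Plxna4 on the log2 scale, and higher than in Hep53.4 by 1.82, 1.43, 1.62, 1.55 and 0.86. The difference from Hepa1-6 for Plxna4 had an adjusted p of 0.0488 and lost its call in 9 of its alternatives. The effect in LLC was lower than in Hepa1-6 for Wnt7b (-3.07), Chst11 (-2.88), Ankrd44 (-0.73), Htra1 (-1.03) and Itgb7 (-1.10), and lower than in Hep53.4 for the same genes (-0.60, -0.35, -1.86, -1.52 and -1.41). Prss35 and Aqp1 were near 0 in Hepa1-6, at 0.0513 and 0.307 CPM in knockout and 0.162 and 0.555 CPM in sgNeg2 cells. Wnt7b held 0.433 CPM in knockout and 0.0852 CPM in sgNeg2 cells of Hepa1-6, so the differences of these 3 genes from that line rest on very low levels.

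Between guides, sg2 minus sg1 was 0.66 for Rsph3a, 0.59 for Particl, 0.52 for Cryab and 0.41 for Psrc1, and -0.43 for Qtrtd1, -0.41 for Wsb1, -0.40 for Tfrc, -0.39 for Dhx9 and -0.38 for Hspa1b. Those of Rsph3a, Tfrc and Dhx9 were called with each library left out in turn, and the other 6 lost the call in at least 1 such fit. Hspa1b and Rsph3a have near-identical copies.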

How the results depend on the processing

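No result reversed its direction. Of the 4097 calls, 4091 remained with RLE scaling (4103 called), 3996 with DESeq2 (4036), 3997 with no filter (4248), 3223 in the joint fit (3596, of which 1995 rose and 1601 fell) and 3987 with halved counts (4078). With each library left out the calls ranged from 2519 to 4193, rises from 1114 to 1998 and falls from 1405 to 2195. The lowest values all came without sgNeg2 replicate 1, the control group being then 1 library that is assumed to vary like the others. With a 2-fold threshold 303 rises and 11 falls were left. The guide comparison ranged from 227 to 1145 calls (136 to 618 higher with sg2, 91 to 529 lower) and gave 570 with DESeq2. Named genes lost their call in 152 of 2786 settings, over 59 of 200 genes. The replicate block gave 3832 calls (3810 of the 4097), 770 between guides, and 3327 and 3976 for the differences from Hepa1-6 and Hep53.4. Residuals of libraries with the same replicate number correlated at -0.038, -0.018 and 0.142, so the numbers were not taken as a pairing.

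The difference in detected genes was 562 between means, 563 at equal depth and 454 at 5 or more counts. With 2 control libraries, 256 of 303 large rises under 1 CPM and low counts mostly even, the rises at low level are the least certain values here, and the cause of the even counts was not tested.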
